A study of Mus musculus with 2 samples.

Results

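Laminins, nidogens and perlecan are secreted proteins that build the basement membrane, and the genes described here are 10 members of that group: the laminin chain genes Lama1, Lama2, Lama4, Lama5, Lamb1, Lamb2 and Lamc1, the nidogen genes Nid1 and Nid2, and Hspg2, which encodes perlecan. They were picked out by gene symbol, a rule with no threshold on a measured value, and make up 10 of the 55536 mouse genes in the deposited gene tables. All 10 symbols were matched to a protein-coding gene, with 51 annotated transcripts between them. The libraries came from hearts of male B6CASTF1/J mice, the first-generation hybrid of the strains C57BL/6J and CAST/EiJ, taken at 4 days of age with no treatment named. Total RNA was measured in 2 libraries, 1 for each animal number in the labels, each made from 300 ng of RNA as a stranded library with ribosomal RNA reduced and ERCC spike-ins added. The labels give both animals the same donor record but different animal numbers. How much of the spread between the libraries, called replicate 1 and replicate 2 here, is technical therefore cannot be told. Where the hearts are compared below, these libraries are meant, and that they come from separate animals is not settled. Both libraries belong to 1 group. The design therefore holds no contrast between conditions, and every value below describes these libraries.

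A laminin is a cross-shaped trimer of an alpha, a beta and a gamma chain, which are joined in the endoplasmic reticulum before secretion. Laminins polymerise on cell surfaces that carry integrins and dystroglycan, while type IV collagen forms a separate network. Nidogens bind both networks, and perlecan, a large proteoglycan that carries heparan sulfate, binds laminin, nidogen and growth factors. In the heart, basement membranes surround each cardiomyocyte, the capillary endothelium and the pericytes and smooth muscle cells of vessels. In RNA from a whole organ, fewer cells of a type and less RNA per cell cannot be told apart.

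Expected counts on mouse genes were 31512596 in replicate 1 and 35744013 in replicate 2. The heart label was set beside lists of markers, which were chosen with earlier results of these data known. All 6 cardiomyocyte markers were expressed, which here means a TPM (an abundance per length of transcript, scaled to the library) of at least 1 in both libraries, and they were led by Myh6 at 8663 and 7208 TPM and Actc1 at 6963 and 7924. None of 6 lung markers and none of 6 thymus markers was expressed. In replicate 1 alone, however, some lung markers passed a TPM of 1. Sftpc had 1.98 and 0.60 TPM, from 33 and 12 counts, and Scgb1a1 had 1.09 and 0. Of 6 skeletal muscle markers 1 was, the creatine kinase gene Ckm, which heart muscle also makes, at 1459 and 1292 TPM. Among the others, Mylpf had 0.97 and 1.31 TPM, above 1 in replicate 2 alone. Tnnt3 had 0.55 and 0.41 TPM and the muscle regulator Myog 0.06 and 0.20, while Myod1 and Pax7 were listed at 0. Red cell markers were higher in replicate 2. The summed TPM of 6 of them was 1409 in replicate 1 and 5293 in replicate 2, and 5 of the 6 were over 2-fold higher there.

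Together the 10 genes took 0.479% of mouse-gene counts in replicate 1 and 0.481% in replicate 2, or 0.0942% and 0.0898% of mouse-gene TPM. Of the 10, 9 were expressed in both hearts, each at a mean of over 10 TPM, and Lama1 was the exception. Of all 22015 nuclear protein-coding genes, 11854 were expressed. The alpha chains, which carry the cell-binding domains of a laminin, differed most in level.

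Lama4 (chr10:38965515-39110188, plus strand, mm10), the alpha chain typical of vessel walls and also made by cardiomyocytes, had 110 TPM in replicate 1 and 94.5 in replicate 2, a mean of 102 ± 11.2 (SD, n = 2). Lama2 (chr10:26980036-27619758, minus strand), the alpha chain of muscle fibre basement membranes whose loss causes congenital muscular dystrophy, had 71.1 and 75.5 TPM, a mean of 73.3 ± 3.14. The order of these alpha chains was the same in both hearts, with Lama4 1.55-fold above Lama2 in replicate 1 and 1.25-fold in replicate 2. Lama5 (chr2:180176373-180225859, minus strand), a broadly made alpha chain of epithelia and mature vessels, had 23.4 and 20.8 TPM, a mean of 22.1 ± 1.82. Lama1 (chr17:67697259-67822647, plus strand), the alpha chain of the early embryo, had 1.40 and 0.83 TPM, a mean of 1.12 ± 0.403. Its counts were 188 in replicate 1 and 116 in replicate 2, which is a CPM, a count scaled to the library, of 5.97 (exact binomial 95% interval 5.14 to 6.88) and 3.25 (2.68 to 3.89). These intervals cover counting error only. Lama1 was detected in both libraries, 19.8-fold below Lama5 in mean TPM.

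The beta chains were close to each other. Lamb1 (chr12:31265234-31329644, plus strand), the beta chain found in most tissues, had 115 and 117 TPM, a mean of 116 ± 1.68. Lamb2 (chr9:108479736-108490530, plus strand), a beta chain known from the neuromuscular junction, the kidney filter and vessel walls, had 109 and 96.2 TPM, a mean of 103 ± 9.19. Lamb1 was the higher of the pair in each heart, by 1.05-fold in replicate 1 and 1.22-fold in replicate 2. Lamc1 (chr1:153218922-153332786, minus strand), the gamma chain of nearly all laminins and the chain that nidogens bind, had 154 and 153 TPM, a mean of 153 ± 0.537. It was the highest of these laminin genes.

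Among the linkers, Hspg2 (chr4:137468769-137570630, plus strand) led all 10 genes with 229 and 212 TPM, a mean of 220 ± 11.5, and ranked 310 among 22015 nuclear protein-coding genes. It also held the most counts, 63671 and 69155. Nid1 (chr13:13437551-13512269, plus strand) had 67.5 and 70.4 TPM, a mean of 68.9 ± 2.01, and Nid2 (chr14:19751265-19811787, plus strand) had 53.4 and 49.4, a mean of 51.4 ± 2.84. Nid1 exceeded Nid2 by 1.26-fold in replicate 1 and by 1.42-fold in replicate 2. Nid2 overlaps Rtraf, a protein-coding gene on the opposite strand with 35.3 and 35.1 TPM. Whether the counting used strand is not given in the sources used here, so reads of Nid2 and Rtraf in the shared stretch may not be told apart.

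From highest to lowest mean TPM the order was Hspg2, Lamc1, Lamb1, Lamb2, Lama4, Lama2, Nid1, Nid2, Lama5 and Lama1. Neighbours in this order were separated in both libraries except Lamb2 and Lama4, whose values overlapped. The gap from Lama2 to Nid1 was also narrow, with the lower Lama2 value at 71.1 and the higher Nid1 value at 70.4. The deposited bounds of TPM held the TPM itself for all 10 genes in replicate 2 and for 9 in replicate 1. The exception was Hspg2, at 228.58 TPM with bounds of 217 and 228.28.

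**Figure D1:**
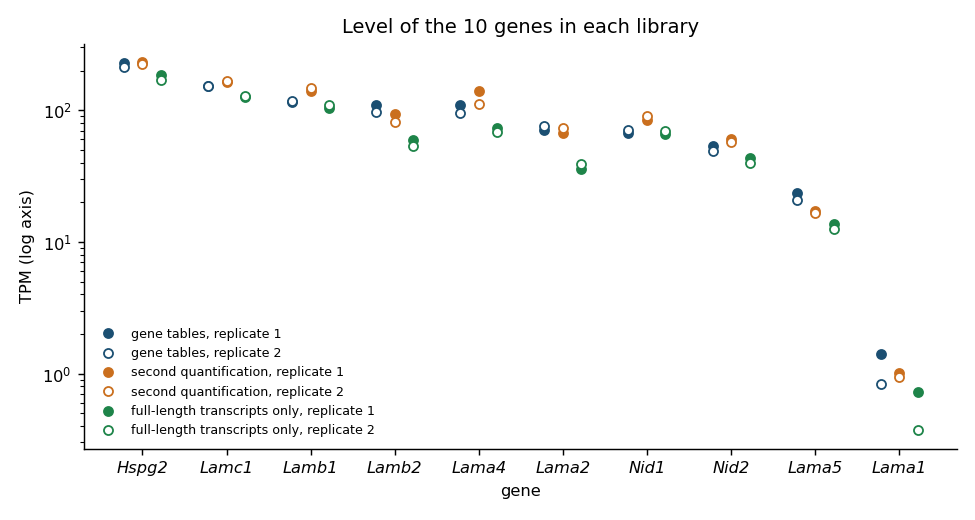
TPM on a log axis for the 10 genes, ordered by mean TPM in the gene tables, with filled points for replicate 1 and open points for replicate 2. Blue points are the gene tables, orange the second quantification of the same libraries and green the full-length transcripts alone, and Lama1 stands apart at 1.40 and 0.83 TPM in the gene tables.

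The levels depended on which transcripts were counted. A transcript was called full-length when it was protein-coding and at least 90% as long as the longest protein-coding transcript of its gene, which 12 of the 51 were. These took 83.0% to 99.3% of a gene's counts on average, but only 48.4% to 98.5% of its TPM, because a few counts on a short transcript weigh heavily per length. The full-length share of TPM was under 60% for 4 genes, Lama1, Lama2, Lamb2 and Lama5. Lamb2 shows the step most plainly. Its transcript Lamb2-206 is 345 nt long and lies wholly within exons of the full-length Lamb2-201, and its 174 and 201 counts took 28.1% of Lamb2 TPM, whereas the second quantification of the same libraries placed 0 on it.

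With full-length transcripts alone, the mean TPM was 176 ± 11.1 for Hspg2, 127 ± 1.99 for Lamc1 and 106 ± 4.13 for Lamb1, and these kept the first 3 places. Lama4 followed at 71.1 ± 3.90 and Nid1 at 67.9 ± 2.04, with values that overlapped. Lamb2 came to 56.4 ± 4.75, Nid2 to 41.4 ± 2.44 and Lama2 to 37.3 ± 2.15, so Lama2 stood below both nidogens on this scale. Lama5 came to 13.1 ± 0.714 and Lama1 to 0.55 ± 0.255, the lowest in either setting. Nid1 was the gene least touched, since Nid1-201 held 98.5% of its TPM and 99.3% of its counts.

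**Figure D2:**
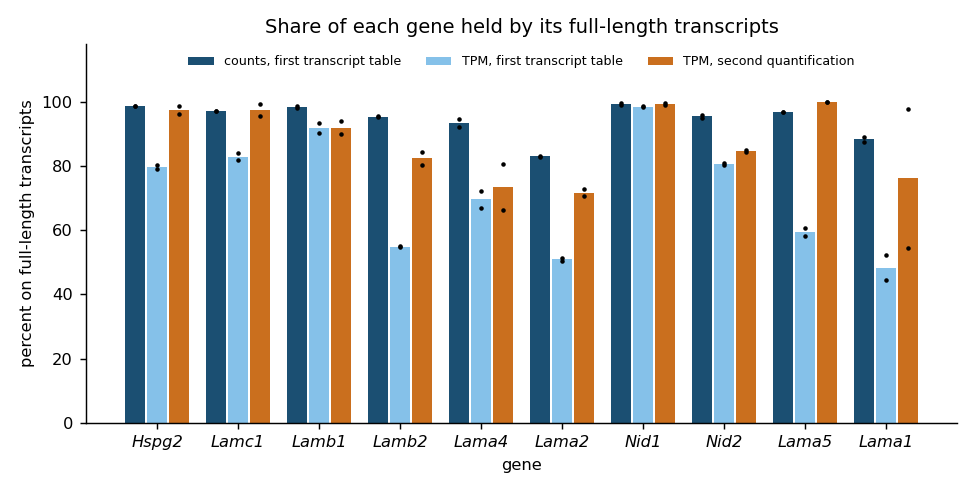
Percent of each gene held by its full-length transcripts, with bars for the mean of 2 libraries and black points for each library. Dark blue bars are shares of counts and light blue bars shares of TPM in the first transcript table, and orange bars are shares of TPM in the second quantification. Lama1, Lama2, Lamb2 and Lama5 have the lowest light blue bars, between 48.4% and 59.5%.

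Since a laminin takes 1 chain of each class, the share of each alpha and beta chain was computed within the summed TPM of its class, with Lama3 and Lamb3 included. Lama4 made up 53.2% of alpha-chain TPM in replicate 1 and 49.1% in replicate 2, a mean of 51.1% ± 2.92. Lama2 made up 34.3% and 39.2%, Lama5 11.3% and 10.8%, and Lama1 and Lama3 a mean of 0.553% and 0.554%. Replicate 1 thus leaned further to Lama4 and replicate 2 to Lama2, and Lama4 led in both on this scale. In shares of expected counts, which are not per length, Lama2 led in replicate 2, at 43.0% against 41.5%. With full-length transcripts alone Lama4 came to 57.8% ± 1.79 and Lama2 to 30.4% ± 2.47.

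Lamb1 made up 50.5% and 53.9% of beta-chain TPM, a mean of 52.2% ± 2.37, and Lamb2 46.2% ± 2.71. With full-length transcripts alone Lamb1 came to 65.0% ± 2.77, and the second quantification gave 64.2% ± 2.86 on the same transcripts. The difference between the settings was larger than the spread between the hearts.

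Summed TPM was 200 ± 10.4 for alpha and 222 ± 6.87 for beta chains, a beta to alpha ratio of 1.11 ± 0.0236. No share was computed for the gamma class, of which Lamc1 alone was set beside these sums. In the gene tables Lamc1 stood at 0.740 of the alpha sum in replicate 1 and 0.793 in replicate 2, a mean of 0.767 ± 0.0373. With full-length transcripts the alpha and beta sums were 123 ± 2.93 and 164 ± 0.636, a ratio of 1.33 ± 0.0266, and Lamc1 came to 1.03 ± 0.0408 of the alpha sum, or 1.01 ± 0.0368 by the second quantification. Lamc1 was therefore below the summed alpha chains in the gene tables and close to them on full-length transcripts, while the beta sum was above both on each of these scales.

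**Figure D3:**
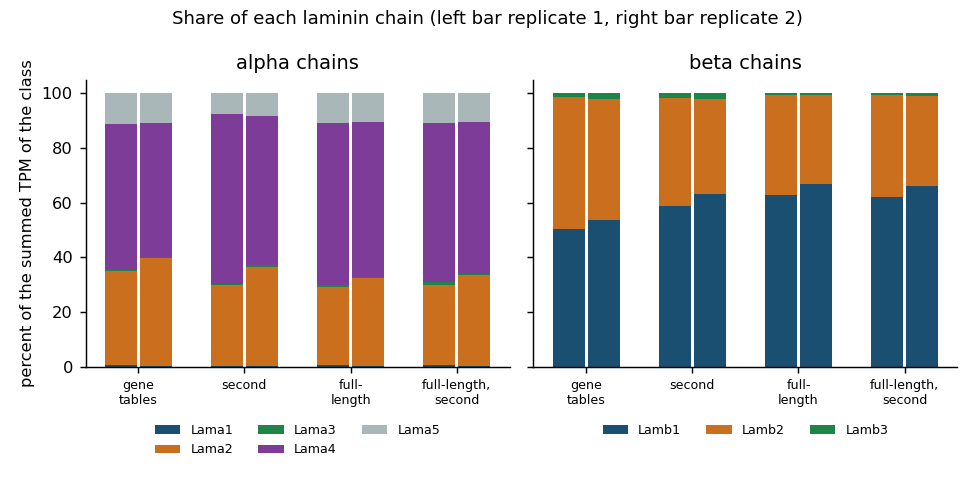
Stacked bars of the percent of summed TPM held by each laminin chain within the alpha and beta classes, for replicate 1 on the left and replicate 2 on the right of each pair. The pairs are the gene tables, the second quantification, full-length transcripts and full-length transcripts by the second quantification. Lama4 and Lamb1 are the largest parts of their classes in every bar shown, with Lama4 lowest at 49.1% in replicate 2 of the gene tables.

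A single transcript led most of the genes. The same transcript led in both quantifications for 9 of the 10, and the median share of the leading transcript was 64.6% of gene TPM. Lamb1-201 held 91.1% ± 2.09 of Lamb1, Lamc1-201 held 82.9% ± 1.59 of Lamc1 and Nid2-201 held 80.6% ± 0.298 of Nid2. Lama4-201 held 69.6% ± 3.79 of Lama4, and the intron-retaining Lama4-207, a 511 nt transcript, held 21.9% ± 0.678. Of the 39 transcripts that were not full-length, 11 were listed at 0 in both libraries by the second quantification. These include Lama5-203, which had 28.2% of Lama5 TPM in the first tables.

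Perlecan was the gene without a clear leading form. Hspg2-203 held 40.9% ± 0.0107 of Hspg2 TPM and Hspg2-201 held 38.9% on average, while the second quantification put Hspg2-201 ahead at 50.1% against 47.4% ± 0.0326. The short transcript Hspg2-202, of 820 nt, held 20.2% in the first tables and 2.52% in the second. Counts on Hspg2-201 were 30955 and 33033, and on Hspg2-203 they were 31932 and 35204. Per the annotation, the coding parts of the long forms differ at 3 splice sites on chr4, plus strand. Exon 49 of Hspg2-203 starts 18 nt earlier (chr4:137540195-137540212), its exon 64 ends 12 nt later (chr4:137548491-137548502), and exon 65 of Hspg2-201 starts 6 nt earlier (chr4:137549532-137549537). Each insert is a whole number of codons. Sequences across these junctions are printed because they are what separates forms that were given nearly equal shares. The sequences run 5′ to 3′, are taken from GENCODE M21 transcripts, and have in capitals the bases that are absent from the other form.
Hspg2-201, exons 48 to 49: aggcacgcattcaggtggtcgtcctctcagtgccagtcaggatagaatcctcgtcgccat
Hspg2-203, exons 48 to 49: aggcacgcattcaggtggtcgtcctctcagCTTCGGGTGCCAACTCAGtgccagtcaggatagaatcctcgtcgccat
Hspg2-201, exons 64 to 65: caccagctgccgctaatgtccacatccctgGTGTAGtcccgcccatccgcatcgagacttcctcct
Hspg2-203, exons 64 to 65: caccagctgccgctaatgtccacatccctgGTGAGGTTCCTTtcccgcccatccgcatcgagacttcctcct
The tables give 1 value for each whole transcript, so the 3 choices could not be separated from each other. The annotated forms also differ outside the coding part, by 34 nt at the start of exon 1 and by 1 nt at the end of exon 97. They are 14187 nt (Hspg2-201) and 14176 nt (Hspg2-203) long and share all other bases, so most reads fit both. The split between the forms rests on the few reads over these sites and on how each program divided the rest. The SD between the libraries does not cover that error.

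Next, replicate 2 was set against replicate 1, as a measure of the error behind these levels. Counts were scaled by TMM, a library scaling that assumes most genes to be alike, and expressed as the log2 ratio of replicate 2 over replicate 1. None of the 10 genes differed over 2-fold, against 3.06% of the 16271 genes that passed a filter on low counts, as all 10 did. By direction, none was over 2-fold higher in replicate 2, against 0.842% of all genes, and none over 2-fold lower, against 2.22%. The median log2 ratio was 0.01, against -0.0033 over all genes, and the median absolute value was 0.10, against 0.19. For the 12062 genes whose mean count was 100 or more, a set that holds all 10, the median absolute value was 0.16 and 1.08% differed over 2-fold. With 1 heart against 1 these ratios carry no test.

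Of the 10, 7 were higher in replicate 2 by any amount, as were 49.6% of all genes. Hspg2 and Nid2 were level, at 0.0028 and 0.00011. Lama5 stood at 0.02, Lama4 at -0.02 and Lamb2 at -0.05. Lama2 was higher in replicate 2 by 0.24 (exact 95% counting interval 0.21 to 0.28), Lamb1 by 0.20, Nid1 by 0.18 and Lamc1 by 0.16. Lama1 had the largest ratio, -0.80 (-1.16 to -0.47), from 188 and 116 counts. A counting interval covers the sampling of reads and not the spread between animals.

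Markers of other cell types also differed between the libraries. Of 7 fibroblast markers 6 were higher in replicate 2, with a median log2 ratio of 0.46 and a summed TPM of 937 and 1212, led by Col1a1 at 309 and 405 TPM. All 6 epicardial markers were higher in replicate 2, with a median of 0.21 and a summed TPM of 49.04 and 51.84. Of 6 fat markers only Cidea was expressed, at 26.6 and 27.1 TPM, and Ucp1 of brown fat was listed at 0 in replicate 1 and had 8.94 in replicate 2. The summed TPM of the fat list was 26.95 and 41.06. Endothelial markers had a median of 0.05 (summed TPM 546 and 476), mural markers 0.07 (255 and 253) and cardiomyocyte markers -0.04 (23614 and 22138). No fibroblast, epicardial, endothelial, mural or cardiomyocyte marker was at 0. The part of fibroblast, epicardial or fat RNA in the ratios of Lama2, Lamb1, Nid1 and Lamc1 was not tested.

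**Figure D4:**
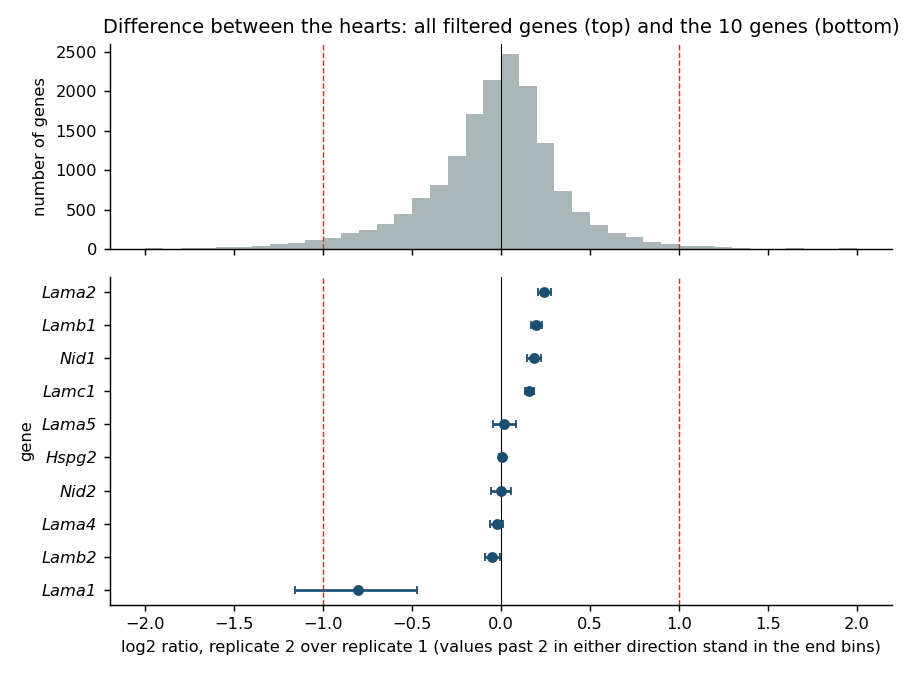
Top, number of genes by log2 ratio of replicate 2 over replicate 1 for the 16271 filtered genes, in bins of 0.1. Bottom, the same ratio for the 10 genes with exact 95% counting intervals, and dashed lines at 2-fold. Lama1 is farthest from 0 at -0.80, and the other genes lie between -0.05 and 0.24.

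Transcripts that keep an intron behaved unlike the full-length ones. The annotation lists 24 intron-retaining transcripts for 8 of the genes, none for Lama5 or Hspg2. Of the 20 with a mean of at least 20 counts, 16 were lower in replicate 2, with a median log2 ratio of -0.49, whereas the 12 full-length transcripts had a median of 0.02. Intron-retaining transcripts of all genes leaned the same way, with 74.7% of 8125 lower and a median of -0.39. By the second quantification 15 of 18 were lower with a median of -0.92, against 74.9% of all and a median of -0.39. The share of members that was lower was thus close to that of all genes in both quantifications.

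Lama4 had 912 counts on such transcripts in replicate 1 and 646 in replicate 2, and all 6 of them were lower in replicate 2 in both quantifications. Their summed ratio was -0.61 (exact 95% counting interval -0.76 to -0.47), against 0.02 (-0.02 to 0.06) for the full-length Lama4-201. The intervals of these Lama4 forms did not overlap. Summed ratios were -0.68 for Lamb2, from 189 and 127 counts, -0.72 for Nid1, from 95.1 and 62.5, -0.36 for Lamb1 and -0.37 for Nid2, each with an interval below 0. Lama2 went the other way at 0.20 (0.05 to 0.34), from 714 and 888 counts, near the 0.25 of its full-length transcript. Lamc1 at -0.48 and Lama1 at -0.77 had few such counts, and their intervals held 0. Most bases of many of these transcripts are also exon bases, so their counts rest on how each program divided shared reads. By the second quantification the summed Lama4 ratio was -0.93 for intron-retaining transcripts and 0.06 for Lama4-201. The value of -0.93 lies outside the counting interval of -0.76 to -0.47, so these intervals leave out the error of dividing reads.

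Sequences at the exon end where such a transcript runs on into the intron are printed for Lama4 and Lama2, the genes with the most counts on such transcripts, whose summed ratios had opposite signs. Bases in lower case are coding exon and capitals are the intron kept in the transcript, 5′ to 3′ on the strand of the gene, at chr10:39033092-39033141 (plus strand, exon 8 of Lama4-201) and chr10:27344393-27344442 (minus strand, exon 10 of Lama2-201).
Lama4-204: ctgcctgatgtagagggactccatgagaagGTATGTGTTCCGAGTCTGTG
Lama2-204: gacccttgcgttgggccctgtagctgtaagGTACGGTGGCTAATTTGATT
Both introns begin with GT, as did the boundary examined in each of the 8 genes. Lama4-204 keeps 1128 nt of the intron and had 257 and 153 counts, and Lama2-204 keeps 162 nt and had 391 and 509. By the second quantification Lama4-204 had 193 and 106, but Lama2-204 had 75.4 and 23.5, so that its log2 ratio turned from 0.26 to -1.73. The summed Lama2 ratio stayed above 0 there, at 0.10.

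**Figure D5:**
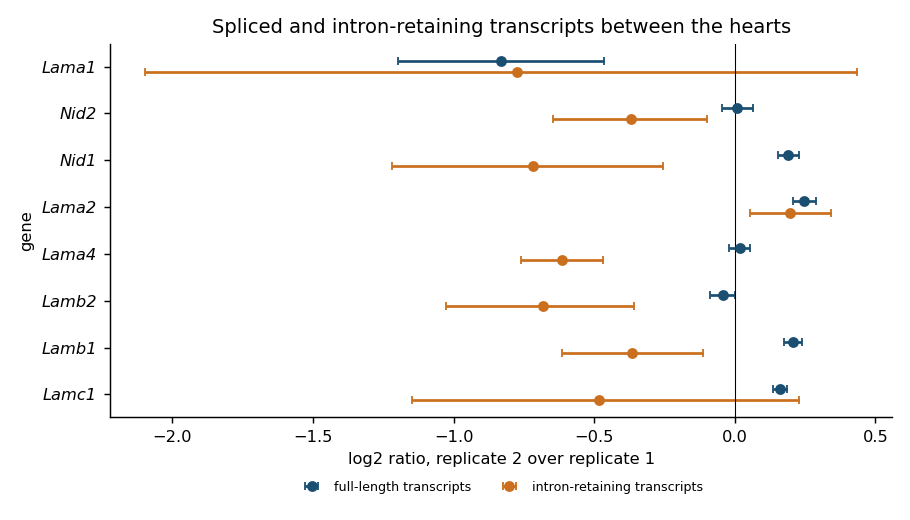
Log2 ratio of replicate 2 over replicate 1 for the summed full-length transcripts (blue) and the summed intron-retaining transcripts (orange) of the 8 genes that have both, with exact 95% counting intervals. Intron-retaining sums lie below the full-length ones for 7 of 8 genes, with Lama4 at -0.61 against 0.02, and Lama1 at -0.77 against -0.83 is the exception.

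The partners of these proteins were then counted from lists that were also chosen with earlier results of these data known. For scale, 11854 of 22015 nuclear protein-coding genes were expressed. Of the 6 type IV collagen genes 5 were expressed, with a summed TPM of 763 ± 42.2, led by Col4a1 at 484 and 455 TPM and Col4a2 at 280 and 247, the ubiquitous chains. Col4a3 had a mean of 0.88. Of the 6, 5 were higher in replicate 2, with a median log2 ratio of 0.18. Of 3 laminin chain genes outside the 10, Lamb3 was expressed, at 3.63 ± 0.636 TPM, while Lama3 had a mean of 1.11 with 0.99 in replicate 2, and Lamc3 a mean of 0.235. Lama3 and Lama1 were thus at nearly the same mean level. Of 21 further basement membrane genes 19 were expressed, led by Sparc, a collagen-binding protein, at 579 ± 30.3 TPM and Pxdn, which crosslinks type IV collagen, at 99.5 ± 7.34. Col7a1 and Col17a1, of skin anchoring structures, had means of 0.67 and 0.035. Of the 20 genes of this list that passed the filter on low counts, 15 were higher in replicate 2, with a median log2 ratio of 0.23.

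All 15 laminin and basement membrane receptor genes were expressed. The integrin beta chain Itgb1 had 248 and 283 TPM, dystroglycan (Dag1) 126 and 137 and the Lutheran glycoprotein Bcam 127 and 120. Rpsa, a ribosomal protein also described as a laminin receptor, had 379 and 355. Of the 15, 13 were higher in replicate 2, with a median log2 ratio of 0.23, against 49.6% and -0.0033 over all genes. Of 17 genes listed for dystroglycan glycosylation 16 were expressed, and Large2 had a mean of 0.30. The median of the 17 was 8.87 TPM. Of the 16 that passed the filter on low counts, 9 were higher in replicate 2, with a median log2 ratio of 0.03.

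All 18 genes of heparan sulfate synthesis and editing, which build the chains that perlecan carries, were expressed, led by Sulf2 at 51.4 ± 1.14 TPM and Ndst1 at 46.6 ± 2.43. Of these 15 were higher in replicate 2, with a median of 0.15. Of 14 genes for proteases and heparanase that cut the matrix 11 were expressed, led by Ctsl at 87.3 ± 5.41, Htra1 at 58.4 ± 0.219 and Mmp2 at 57.6 ± 9.07. Hpse, which cuts heparan sulfate, had a mean of 0.295. Of the 14, 11 were higher in replicate 2, with a median log2 ratio of 0.27. All 12 genes of chain assembly and secretion were expressed, led by the collagen chaperone Serpinh1 at 239 ± 7.25 and the endoplasmic reticulum chaperone Hspa5 at 199 ± 33.4. The median log2 ratio of these 12 genes was -0.02, with 5 of 12 higher in replicate 2. No gene of these partner lists that passed the filter on low counts differed over 2-fold between the hearts. Of all genes that passed the filter 3.06% did, and of those with a mean count of 100 or more 1.08%.

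The same reads quantified a second way gave an error that the hearts do not show. Centred on the median of all genes, no gene of the 10 was over 2-fold apart the same way in each library, against 9.69% of 15568 genes. Lama5 was the lowest in the second tables, at a centred log2 ratio of -0.83 ± 0.06, followed by Lamb2 at -0.67 ± 0.04. All 10 centred means were below 0, and the highest was Nid1 at -0.11. Centring on the median leaves about as many genes below 0 as above it in each library. Before centring, the median gene was 1.35-fold higher in the second tables in replicate 1 and 1.38-fold in replicate 2. Without centring, Nid1 was 1.26-fold and Lamb1 1.24-fold higher in the second tables, each less than the median gene. Lama5 stood at 0.766 of its first value. Hspg2, Lamc1 and Lamb1 kept the first 3 places, and Lama4 moved above Lamb2, with 141 and 111 TPM against 94.0 and 81.3.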

How the data were processed

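Total RNA from 2 heart samples was sequenced. Per the file headers, the authors' gene table and first transcript table give expected counts and TPM under RSEM's column names, with bounds of TPM (a signal whose level is unstated) deposited beside them. The deposited second transcript table, under kallisto's column names, gives estimated counts and TPM. Notes beside the files give mm10 and GENCODE M21. Aligner and settings: not given in the sources used here.

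Expected counts were rounded. Mouse genes alone entered library sizes, so 96 spike-ins and 26248 numbered rows that name no gene (6.31e-06% and 1.11e-05% of counts) were left out. Scaling (TMM), filtering (filterByExpr) and log2 ratios (prior count 2) used edgeR 4.0.16 in R 4.3.3, and that step was tested on simulated data. Ratios of transcripts used a pseudocount of 0.5 and the TMM library scaling of genes in their own quantification. DESeq2 1.42.0 size factors were an alternative. Other steps used Python 3.11.15, pandas 2.3.3, NumPy 2.4.6, SciPy 1.17.1 and matplotlib 3.10.9. No test was run, since with 2 libraries an exact two-sided sign-flip test cannot go below p = 0.5. Intervals are exact binomial intervals at the 95% level, which take each rounded count as a separate read, and they cover counting error only. PCR copies of a read are not separate molecules, so the intervals may be too narrow even for that error.

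The 10 members and gene lists were chosen with earlier results of these data known. All 10 members were named. Of other lists, the 4 highest by mean TPM, genes past 2-fold and genes under a TPM of 1 could be named, and in assembly and marker lists the 2 highest. Lama3 and the ends of an order or range were named after their values were seen. Of 198 listed genes 196 matched by current and 2 by older symbols. A further listed item is not reported here.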

Additional observations from a re-analysis of the deposited data

How the results depend on the processing

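No paired analysis was possible because the 2 libraries form 1 group, with no second group to pair them with. Summed TPM of the 10 genes was 911, and it became 985 by the second quantification, 2063 when TPM was rescaled to nuclear protein-coding genes and 697 with full-length transcripts only, a setting chosen after seeing the data. Lamb1's share of beta chains was 52.2%, against 61.0% by the second quantification, 64.4% from expected counts and 65.0% on full-length transcripts. Lama4's share of alpha chains was 51.1%, against 58.3%, 43.1% and 57.8% in the same settings. From expected counts Lama4 led Lama2 in replicate 1, at 44.7% against 38.6%, and the order turned in replicate 2, at 41.5% against 43.0%. Expected counts are not per length, and the cause of these moves was not tested. The median share of the leading transcript was 64.6%, against 83.5% by the second quantification and 99.2% of protein-coding transcripts. Leaving out either library gave 890 to 933 for summed TPM, 50.5% to 53.9% for Lamb1, 49.1% to 53.2% for Lama4 and 62.6% to 66.5% for the leading transcript. The median ratio between the hearts was 0.01 to 0.06 under the count scalings and -0.11 on TPM with either pseudocount, where the median of all genes was -0.13 or -0.11. On the TPM scale 3 of 10 genes were higher in replicate 2, against 7. No gene passed 2-fold in any of these settings. Lama1 reached a TPM of 1 in both libraries only after rescaling. Depth limits Lama1 most, at 116 counts in replicate 2, against 3867 or more for each other gene.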
